A study of Mus musculus with 27 samples.

Results

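Neutrophil recruitment in the lung was followed through 8 genes, taken by symbol from the 21742 gene symbols of the linear RNA table: the chemokines Cxcl1, Cxcl2, Cxcl3, Cxcl5 and Cxcl15, the chemokine receptor Cxcr2, the growth factor Csf3 (G-CSF) and its receptor Csf3r. All 8 symbols were found once. The study measured linear and circular RNA in lung tissue from the left lobe. The mice were of the BALB/c AnNHsd strain and 87 days old, and each gave 1 library, 27 libraries in 4 groups. The 6 Dex_CDGHDM mice were sensitized and received dexamethasone, a synthetic glucocorticoid, in 3 intraperitoneal doses of 3 mg/kg. The 6 AM155 mice received 3 intravenous doses of 2 mg/kg of an antisense oligonucleotide to miR-155, carried in TheraSilence lipid nanoparticles. Both agents were given on days 11, 18 and 25 of a 35 day protocol. The 10 CDG_HDM mice were sensitized with extract of house dust mites together with cyclic di-GMP, a bacterial second messenger that served as the mucosal adjuvant, and received no further agent. The 5 Saline mice were unsensitized. The label of the AM155 mice names the oligonucleotide and not the sensitization, and no group given nanoparticles without the oligonucleotide was analysed here.

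Chemokines of the CXC class that carry an ELR motif before their first cysteines draw neutrophils out of the blood and into tissue by binding CXCR2 on the neutrophil surface. Macrophages, epithelium, endothelium and stroma make them after signals such as IL-1, TNF and IL-17, through NF-kappaB at their promoters and through slower decay of their short-lived messages. G-CSF acts further away, in the bone marrow, where it drives the formation and release of neutrophils through the receptor encoded by Csf3r. In asthma, airway inflammation rich in neutrophils is associated with severe disease that responds poorly to glucocorticoids.

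The 5 chemokine genes lie on the plus strand of mouse chromosome 5 within 147 kb, at chr5:90759360-90905938 (GRCm38, GENCODE M21), a stretch that holds 7 protein-coding genes, the other 2 being the platelet chemokine genes Pf4 and Ppbp. In the order of the genome, Cxcl3 starts 26.7 kb, Cxcl15 35.2 kb, Cxcl1 131.9 kb and Cxcl2 144.5 kb after the start of Cxcl5. The other members lie on other chromosomes: Cxcr2 at chr1:74153989-74161246, Csf3 at chr11:98701263-98703629 and Csf3r at chr4:126024550-126044440. RefSeq promoter windows of GRCm38.p6, running from 250 bases before to 50 bases after the start, were given for 6 of the 8 genes, and Csf3 and Cxcl5 had no entry. Shown here, 5′ to 3′ on the plus strand, are the 250 bases before the start of 4 chemokine genes. They are shown because Cxcl1, Cxcl2 and Cxcl3 share a motif in them that Cxcl15, which lies between Cxcl3 and Cxcl1, does not show. Capitals mark matches to the NF-kappaB decamer or to the TATA box TATAAA. The windows are chr5:90890995-90891244 for Cxcl1, chr5:90903649-90903898 for Cxcl2, chr5:90785851-90786100 for Cxcl3 and chr5:90794284-90794533 for Cxcl15.
Cxcl1: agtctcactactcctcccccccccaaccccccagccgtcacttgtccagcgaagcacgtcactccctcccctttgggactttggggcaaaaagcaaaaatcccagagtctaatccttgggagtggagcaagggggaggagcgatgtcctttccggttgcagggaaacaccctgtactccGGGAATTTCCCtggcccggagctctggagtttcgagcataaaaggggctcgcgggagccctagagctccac
Cxcl2: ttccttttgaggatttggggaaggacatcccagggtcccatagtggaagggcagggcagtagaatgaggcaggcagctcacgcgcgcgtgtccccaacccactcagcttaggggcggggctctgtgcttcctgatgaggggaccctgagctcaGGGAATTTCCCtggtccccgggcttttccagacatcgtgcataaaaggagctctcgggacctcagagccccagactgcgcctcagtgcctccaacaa
Cxcl3: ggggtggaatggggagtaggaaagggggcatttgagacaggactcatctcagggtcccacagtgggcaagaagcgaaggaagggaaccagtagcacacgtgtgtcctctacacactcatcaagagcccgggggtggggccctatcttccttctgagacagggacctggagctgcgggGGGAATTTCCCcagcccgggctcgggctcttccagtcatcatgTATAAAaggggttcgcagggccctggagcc
Cxcl15: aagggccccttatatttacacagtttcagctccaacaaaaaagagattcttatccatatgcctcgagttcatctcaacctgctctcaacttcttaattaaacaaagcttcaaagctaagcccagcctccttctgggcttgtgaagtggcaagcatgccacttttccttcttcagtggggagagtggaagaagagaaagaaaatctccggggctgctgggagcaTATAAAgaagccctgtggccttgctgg
Counted from the first base of each window, the decamer GGGAATTTCC begins at base 180 in Cxcl1, at base 154 in Cxcl2 and at base 178 in Cxcl3. In all 3 the minus strand holds a second match, shifted by 1 base, that overlaps the first. Csf3r has a match of its own on the minus strand, GGGACCTTCC, beginning at base 122. The TATA box TATAAA was found in Cxcl15 and Cxcl3, and the AP-1 motif TGANTCA in none of the 6 windows. Both strands of all 32851 windows of 300 bases in the same table were searched in the same way: 8.46% held the decamer, 13.6% TATAAA and 7.81% TGANTCA. These letters come from the reference genome and not from BALB/c AnNHsd, and a match is a description of the letters only.

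Values are TPM, in which the transcripts of a library add up to a fixed total, a share of RNA corrected for gene length, so that levels can be set beside each other between genes. Differences between groups were tested with limma on log2(TPM + 1). Genes entered the test if 5 or more libraries had 1 TPM or more, which left 17437, and a gene was called at an adjusted p of 0.05 over all of them. Each change is given on that log2 scale ± SE or with its 95% interval, and it understates the fold of genes near 1 TPM. Of the 8 genes, 7 entered the test. Csf3 reached 1 TPM in only 3 of the 27 libraries and is described without a test. Nothing in the table gives read counts, so the depth behind each value is unknown. The linear tables of single libraries summed to between 542264 and 858506 TPM, and the RNA outside the linear and circular tables took 13% to 32.8% of the scale in Dex_CDGHDM, AM155 and CDG_HDM libraries, against 9.57% to 11.1% in Saline libraries. AM155 6 and Saline 4 lay farthest out on the second principal component of the linear values, and circular RNA took over 200000 TPM in Dex_CDGHDM 4, AM155 5 and AM155 6. The lung origin of the libraries was checked on markers of its own epithelium: the 8 club cell markers, led by Scgb1a1, summed to at least 19680 TPM and the 10 alveolar type 2 markers to at least 16960 TPM in every library, and no listed gene was at 0 throughout a group.

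Over the 27 libraries, levels of the 8 genes spanned a wide range. Cxcl15 stood far above the rest, with a median of 695.5 TPM, above 99.5% of the genes in the table when these are ranked by their median. Cxcl15 encodes lungkine, a mouse chemokine made by airway and alveolar epithelium. Cxcl5 followed at 22.4 TPM and Csf3r at 20.7 TPM. Cxcl1 had a median of 13.2 TPM and Cxcr2 of 9.08 TPM. Cxcl2 and Cxcl3 were lower, at 3.46 and 3.29 TPM, and Csf3 was lowest, at 0.750 TPM. The ligands also differed in how much they varied from mouse to mouse: the highest library exceeded the lowest 6.90-fold for Cxcl3, 5.37-fold for Cxcl5 and 4.59-fold for Cxcl1, but 2.35-fold for Cxcl2 and 2.23-fold for Cxcl15.

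**Figure D1:**
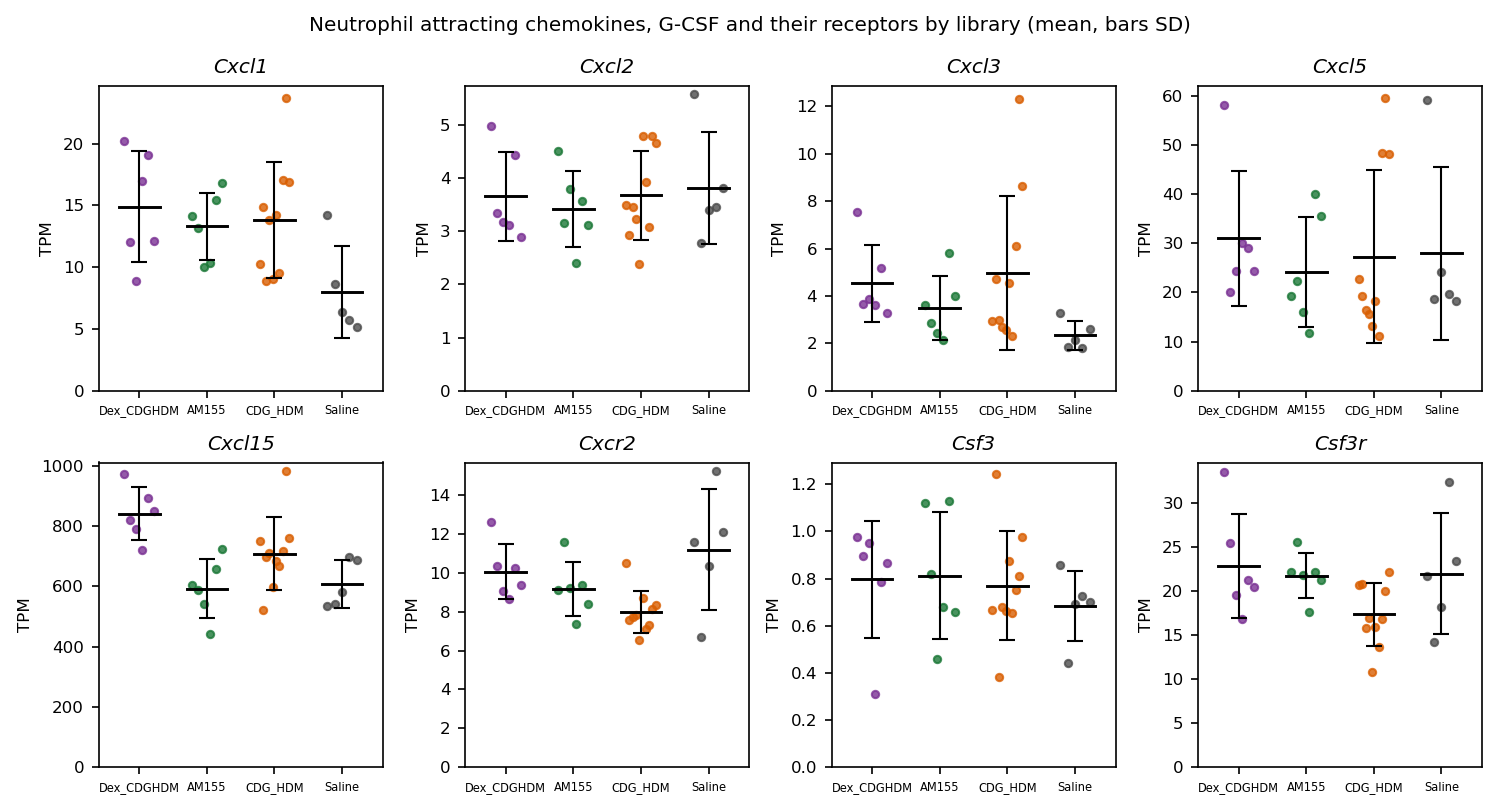
TPM of the 8 genes in each library, by group from left to right Dex_CDGHDM, AM155, CDG_HDM and Saline. Each point is 1 library, the long bar the group mean and the error bar the SD, on axes that start at 0. The 5 Saline libraries sit low for Cxcl1 and Cxcl3 apart from Saline 2, the CDG_HDM libraries sit low for Cxcr2, and the Dex_CDGHDM libraries sit above all 5 Saline libraries for Cxcl15.

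Sensitization went with more Cxcl1 and Cxcl3 and less Cxcr2 in the lung, while the 4 other tested members did not pass. Cxcl1 was 1.67-fold and Cxcl3 1.63-fold higher, and Cxcr2 fell to 0.753 of its Saline level, each on the scale of TPM + 1. Thus 2 of 7 members were called higher and 1 lower in CDG_HDM lungs, against 9.35% of all 17437 genes called higher and 22.8% called lower, and the 3 together against 32.2% called in either direction. For no member were the 2 groups fully separate, as they were for 14% of all genes. Much of the lung transcriptome differed between these groups, so a called member is not unusual here. The median change over all genes was -0.10 as deposited, and between -0.01 and 0.04 after the 3 other scalings, so that changes of about this size cannot be told from the choice of scale. Of the genes called, 29.1% were higher on the deposited scale, against 51.0% with median-of-ratios scaling, 45.7% with quantile normalization and 62.8% after rescaling to a common sum. In lung homogenate, fewer cells of a type and less RNA per cell cannot be told apart.

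Cxcl1 encodes KC, a main ligand of CXCR2 that macrophages, epithelium and stroma release early in inflammation. CDG_HDM lungs had a lowest value of 8.91, a median of 14.0 and a highest of 23.7 TPM. The Saline lungs had 14.3 TPM in Saline 2, 8.63 in Saline 4, 6.38 in Saline 5, 5.71 in Saline 8 and 5.17 in Saline 10. All 10 CDG_HDM values lay above the Saline median, but the groups overlapped, because Saline 2 was higher than 6 of them. The means were 13.8 ± 4.68 TPM (SD, n = 10) in CDG_HDM and 8.03 ± 3.73 TPM (SD, n = 5) in Saline lungs. The log2 change was 0.74 ± 0.210 (SE, limma's adjusted p = 0.00696), and it stayed between 0.62 and 0.95 with each library left out in turn, with adjusted p of at most 0.0378.

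Cxcl3 encodes a close relative of CXCL1 and CXCL2 that also acts on CXCR2. Its values in CDG_HDM lungs had a lowest of 2.33, a median of 3.76 and a highest of 12.3 TPM. In Saline lungs they were 3.27 TPM in Saline 2, 1.86 in Saline 4, 2.16 in Saline 5, 1.79 in Saline 8 and 2.59 in Saline 10. Every CDG_HDM value exceeded the Saline median and 5 of 10 exceeded the highest Saline value. CDG_HDM 12, CDG_HDM 13 and CDG_HDM 14 stood highest, with 6.12, 12.3 and 8.64 TPM. The means were 4.98 ± 3.25 TPM (SD, n = 10) in CDG_HDM and 2.33 ± 0.612 TPM (SD, n = 5) in Saline lungs. The log2 change was 0.71 ± 0.248 (SE, adjusted p = 0.0284 by limma). The call was close to the threshold: adjusted p was 0.0574 with array weights, 0.0534 when only CDG_HDM and Saline were fitted, and between 0.0532 and 0.0765 without CDG_HDM 14, Saline 4, Saline 5 or Saline 8.

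Cxcl2 and Cxcl5, the other CXCR2 ligands, showed no called change. Cxcl2 encodes MIP-2, made above all by macrophages and neutrophils. It ranged from 2.38 to 4.79 TPM with a median of 3.48 in CDG_HDM lungs, against 5.58, 2.79, 3.41, 3.46 and 3.81 TPM in Saline 2, 4, 5, 8 and 10. The groups lay over each other, and the log2 change of -0.04 had an interval from -0.31 to 0.24 (limma's adjusted p = 0.865). Cxcl5 encodes LIX, which in mouse lung comes mainly from alveolar epithelium and from platelets. Its range in CDG_HDM lungs was 11.1 to 59.4 TPM with a median of 18.8, against 59.2, 18.7, 24.2, 19.6 and 18.3 TPM in the same 5 Saline lungs. Both groups held libraries apart from the rest, CDG_HDM 12, CDG_HDM 13 and CDG_HDM 14 at 48.0 to 59.4 TPM and Saline 2 at 59.2 TPM. The log2 change of -0.11 had an interval from -0.81 to 0.59 (adjusted p = 0.840), and it was 0.19 without Saline 2 (adjusted p = 0.722).

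The mix of these 4 ligands is given by their shares of a common sum. Their TPM summed to a median of 40.6 (26.9 to 100.3) in CDG_HDM lungs and 32.0 (29.9 to 82.3) in Saline lungs. Cxcl1 made up 30.0 ± 6.29% of that sum in CDG_HDM (SD, n = 10) and 19.6 ± 4.18% in Saline lungs (SD, n = 5), and Cxcl5 made up 51.8 ± 8.38% in CDG_HDM and 64.6 ± 5.18% in Saline lungs. The share of Cxcl3 was 9.62 ± 1.67% in CDG_HDM and 6.06 ± 1.67% in Saline lungs, and that of Cxcl2 8.56 ± 3.23% in CDG_HDM and 9.80 ± 2.31% in Saline lungs. These shares were not tested. Along the chromosome, the called genes Cxcl3 and Cxcl1 were separated by Cxcl15, which was not called.

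**Figure D2:**
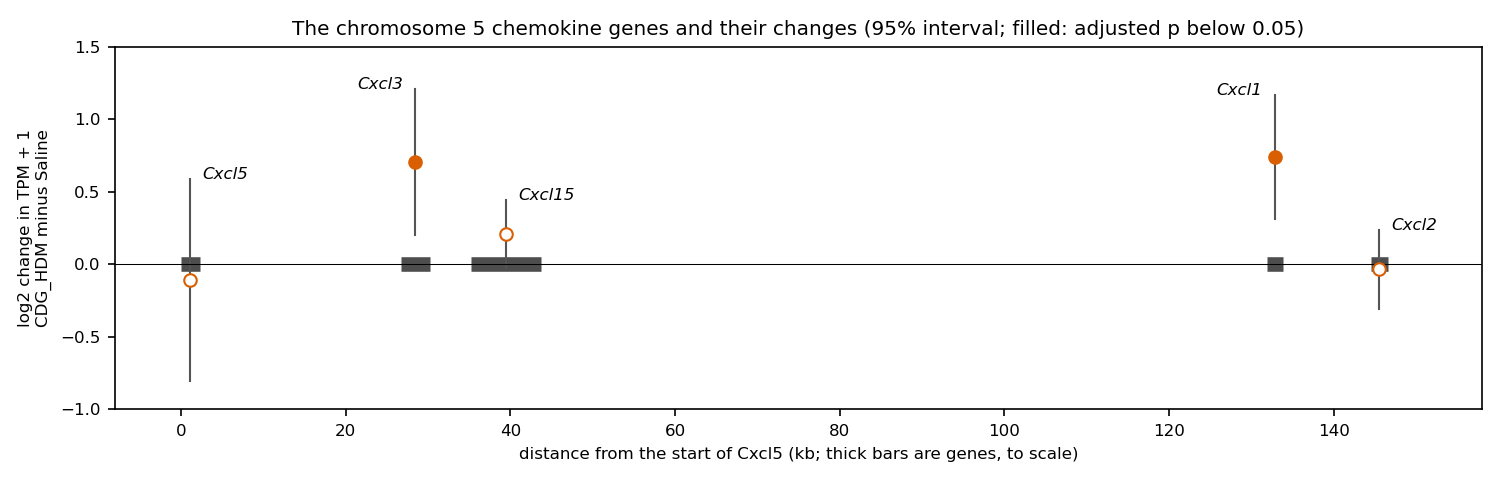
The 5 chemokine genes of chromosome 5 by distance from the start of Cxcl5 in kb, with the log2 change in TPM + 1 of CDG_HDM minus Saline at each gene. Points are changes, vertical lines 95% intervals, filled points genes called at an adjusted p of 0.05, and thick bars the genes to scale. Cxcl3 and Cxcl1 lie at 0.71 and 0.74, the other 3 at -0.11, 0.21 and -0.04.

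Cxcl15 was 708.5 ± 120 TPM (SD, n = 10) in CDG_HDM lungs and 608.5 ± 79.4 TPM (SD, n = 5) in Saline lungs. Its values ran from 522.9 to 983.2 TPM in CDG_HDM lungs with a median of 703.3, and were 534.9, 540.1, 581.1, 698.1 and 688.1 TPM in Saline 2, 4, 5, 8 and 10. Of the 10 CDG_HDM values, 9 lay above the Saline median and 5 above the highest Saline value. The log2 change of 0.21 had an interval from -0.02 to 0.45 and was not called (adjusted p = 0.165). The call turned on the scale: the change was 0.33 with median-of-ratios scaling (adjusted p = 0.0108), 0.38 after rescaling to a common sum (adjusted p = 0.00346) and 0.23 with quantile normalization (adjusted p = 0.0541). Among epithelial markers in the same lungs, 3 of 10 alveolar type 2 genes were higher and none lower, led by the surfactant gene Sftpd (0.81 ± 0.141). Under the 3 other scalings 6 to 8 were higher, while higher calls over all 17437 genes grew from 1631 to between 3571 and 4567. Of 8 club cell genes 5 were lower, among them the secretoglobin gene Scgb1a1 (-1.16 ± 0.165), where 22.8% of all genes were lower. The 10 alveolar type 2 genes summed to 20360 to 30030 TPM in CDG_HDM and 21670 to 23770 TPM in Saline lungs, and the 8 club cell genes to 23070 to 52250 TPM in CDG_HDM and 68260 to 79910 TPM in Saline lungs. The part of these epithelial changes in the Cxcl15 values was not tested.

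Cxcr2, the receptor for these ligands on neutrophils, was lower in sensitized lungs. It ran from 6.52 to 10.5 TPM with a median of 7.77 in CDG_HDM lungs, against 11.6 TPM in Saline 2, 6.69 in Saline 4, 10.3 in Saline 5, 15.2 in Saline 8 and 12.1 in Saline 10. All 10 CDG_HDM values lay below the Saline median, and Saline 4 was the library that made the groups overlap. The means were 7.97 ± 1.09 TPM (SD, n = 10) in CDG_HDM and 11.2 ± 3.10 TPM (SD, n = 5) in Saline lungs, a log2 change of -0.41 ± 0.121 (SE, limma's adjusted p = 0.00919). The change was smaller under the 3 other scalings, though still called. It was -0.30 with median-of-ratios scaling (adjusted p = 0.0119), -0.32 with quantile normalization (adjusted p = 0.00713) and -0.26 with a common sum (adjusted p = 0.0488). The call was lost without Saline 8, at -0.30 with an adjusted p of 0.0683, while leaving out Saline 4 gave -0.57 with an adjusted p of 0.000169.

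Csf3r, which marks neutrophils and their precursors and is also found on some monocytes, pointed the same way without being called. It ranged from 10.8 to 22.2 TPM with a median of 16.9 in CDG_HDM lungs, against 21.8, 14.2, 18.2, 32.4 and 23.4 TPM in Saline 2, 4, 5, 8 and 10. The means were 17.4 ± 3.59 TPM (SD, n = 10) in CDG_HDM and 21.99 ± 6.84 TPM (SD, n = 5) in Saline lungs. The log2 change of -0.30 had an interval from -0.62 to 0.02 (adjusted p = 0.145), and it was called without Saline 4, at -0.44 with an adjusted p of 0.0282. It was also called with array weights, at -0.45 with an adjusted p of 0.00772. Csf3, its ligand, ran from 0.384 to 1.245 TPM with a median of 0.714 in CDG_HDM lungs, against 0.856, 0.443, 0.694, 0.726 and 0.702 TPM in the same Saline lungs. The groups overlapped at levels under the filter, where a difference was not tested, and a fit without the filter gave Csf3 a log2 change of 0.07 with an interval from -0.14 to 0.27.

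**Figure D3:**
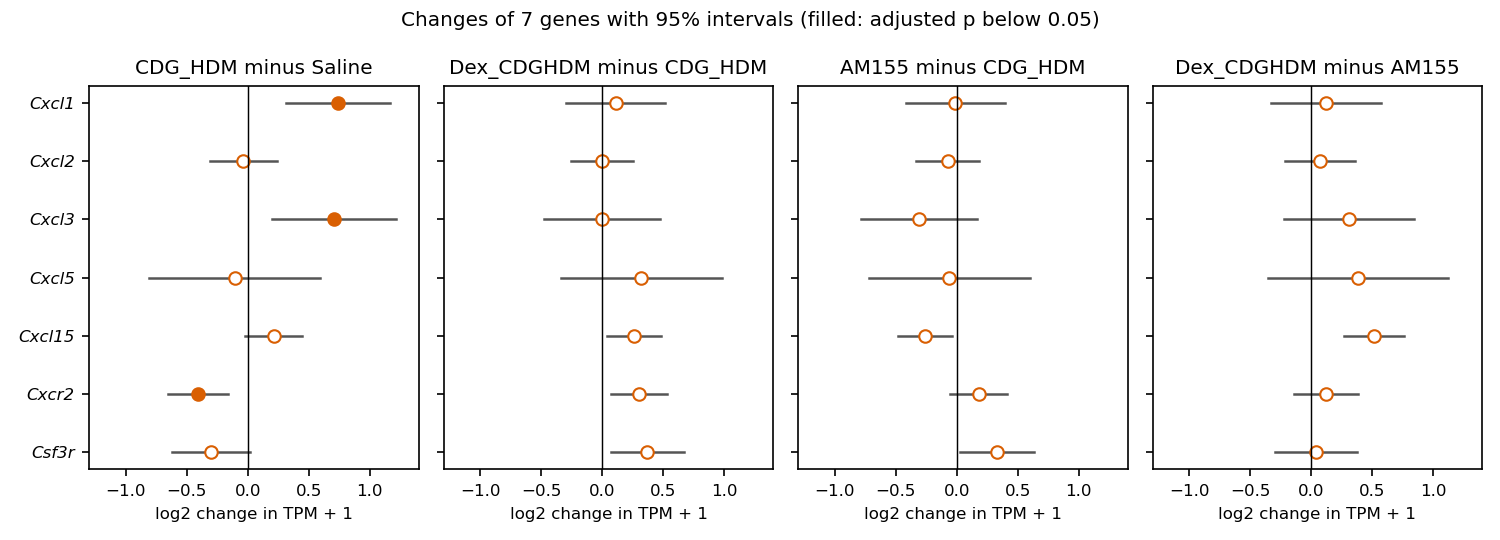
Log2 changes in TPM + 1 of the 7 tested genes in 4 comparisons, with 95% intervals as lines. Filled points are called at an adjusted p of 0.05. Called points appear only in the comparison of CDG_HDM with Saline, for Cxcl1 and Cxcl3 at 0.74 and 0.71 and for Cxcr2 at -0.41, and the point of Cxcl15 in Dex_CDGHDM minus AM155 lies at 0.52.

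Neither treatment produced a called difference in any member against CDG_HDM lungs. Dexamethasone went with 0 of 7 calls, where 0.00573% of all genes were called (1 gene, Cpne7, which was lower and is named after its values were seen). AM155 went with 0 of 7, where 0.103% of all genes were called, 0.0918% higher and 0.0115% lower (18 genes in all). The groups were fully separate for 0 of 7 members in either comparison, against 0.086% of all genes for Dex_CDGHDM and 0.0401% for AM155. At an unadjusted p under 0.05, limma passed 3 members for dexamethasone, where 693 genes (3.97%) passed in all, and 2 for AM155, where 1263 (7.24%) did. The count of called members in both comparisons was also 0 under each of the 3 other scalings.

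For the 2 ligands that were higher with sensitization, neither treated group differed from CDG_HDM lungs by a call, and the values of all 3 groups overlapped. Cxcl1 ran from 8.90 to 20.3 TPM with a median of 14.6 in Dex_CDGHDM lungs and from 10.0 to 16.8 TPM with a median of 13.6 in AM155 lungs, against the median of 14.0 in CDG_HDM lungs given above. The log2 change was 0.11 for Dex_CDGHDM (interval -0.29 to 0.51) and -0.01 for AM155 (interval -0.42 to 0.39). Cxcl3 ran from 3.29 to 7.54 TPM with a median of 3.78 in Dex_CDGHDM lungs and from 2.15 to 5.81 TPM with a median of 3.25 in AM155 lungs, against 3.76 in CDG_HDM lungs. Its log2 changes were 0.00 for Dex_CDGHDM (interval -0.48 to 0.48) and -0.31 for AM155 (interval -0.79 to 0.17). The AM155 mean of Cxcl3 was 3.48 ± 1.34 TPM (SD, n = 6), against 4.98 ± 3.25 TPM in CDG_HDM lungs (SD, n = 10), and changes within these intervals could not be told from the spread between mice.

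Cxcl2 and Cxcl5 were not called either. Cxcl2 ran from 2.90 to 4.98 TPM in Dex_CDGHDM and from 2.40 to 4.50 TPM in AM155 lungs, with changes of 0.00 (interval -0.26 to 0.25) and -0.08 (interval -0.33 to 0.18). Cxcl5 ran from 20.2 to 58.0 TPM in Dex_CDGHDM and from 11.8 to 40.04 TPM in AM155 lungs, with changes of 0.32 (interval -0.34 to 0.98) and -0.06 (interval -0.72 to 0.60). All 6 Dex_CDGHDM values of Cxcl5 lay above the CDG_HDM median, but the 3 high CDG_HDM libraries covered the same range. One library, Dex_CDGHDM 1, was the highest of its group for all 8 genes, and without it the Cxcl5 change was 0.13.

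Cxcl15 was the member in which the treatments lay farthest apart. Dex_CDGHDM lungs had a lowest value of 720.3, a median of 835.4 and a highest of 973.8 TPM, AM155 lungs 441.1, 595.1 and 723.7 TPM, and CDG_HDM lungs 522.9, 703.3 and 983.2 TPM. All 6 Dex_CDGHDM values were above the CDG_HDM median and 5 of 6 AM155 values were below it. Against CDG_HDM, the log2 change was 0.26 for Dex_CDGHDM (interval 0.04 to 0.48, limma's adjusted p = 1.00) and -0.26 for AM155 (interval -0.48 to -0.04, limma's adjusted p = 0.646). The direct test of Dex_CDGHDM against AM155 gave 0.52 ± 0.121 (SE), with 5 of 6 Dex_CDGHDM values above the highest AM155 value, and narrowly missed the threshold at an adjusted p of 0.0986. It was called with quantile normalization (0.43, adjusted p = 0.0483) and without AM155 11 (0.58, adjusted p = 0.0431), and over the libraries left out in turn the adjusted p reached 0.29. Without Dex_CDGHDM 4, AM155 5 and AM155 6, the libraries with the most circular RNA, the change was 0.43 (adjusted p = 0.41). In that comparison 0 of 7 members were called, against 0.0803% of all genes (0.0172% higher, 0.0631% lower), and 0 of 7 members had fully separate groups, against 0.505% of all genes. Among epithelial markers, the alveolar type 2 genes had a median change of 0.18 there with 0 of 10 called, against 0.06 over all genes. The club cell genes had a median change of -0.04 with 0 of 8 called. With median-of-ratios scaling, quantile normalization and a common sum, the alveolar type 2 medians were 0.11, 0.07 and 0.10. The club cell medians were then -0.11, -0.15 and -0.12. The part of these epithelial changes in the Cxcl15 difference was not tested.

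Both receptors were somewhat higher in the treated lungs than in CDG_HDM lungs, short of a call. Cxcr2 ran from 8.68 to 12.6 TPM with a median of 9.79 in Dex_CDGHDM lungs and from 7.35 to 11.6 TPM with a median of 9.18 in AM155 lungs, against a median of 7.77 in CDG_HDM lungs. All 6 Dex_CDGHDM and 5 of 6 AM155 values lay above the CDG_HDM median, with log2 changes of 0.30 (interval 0.07 to 0.53, limma's adjusted p = 0.916) and 0.18 (interval -0.05 to 0.41, adjusted p = 0.695). Csf3r ran from 16.9 to 33.5 TPM with a median of 20.9 in Dex_CDGHDM lungs and from 17.6 to 25.6 TPM with a median of 22 in AM155 lungs, against a median of 16.9 in CDG_HDM lungs. Here 5 of 6 Dex_CDGHDM and all 6 AM155 values lay above the CDG_HDM median, with changes of 0.37 (interval 0.07 to 0.67, limma's adjusted p = 0.981) and 0.33 (interval 0.03 to 0.63, adjusted p = 0.667). These 2 comparisons share the CDG_HDM libraries. Csf3 had medians of 0.880 TPM in Dex_CDGHDM and 0.750 TPM in AM155 lungs, and the 3 libraries at or above 1 TPM were AM155 2, AM155 8 and CDG_HDM 4.

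Set against Saline, Cxcl1 was higher in both treated groups. Cxcl1 was called in Dex_CDGHDM (0.85 ± 0.232, limma's adjusted p = 0.00698) and in AM155 lungs (0.73 ± 0.232, limma's adjusted p = 0.0139), with all 6 values of each group above the Saline median. In AM155 lungs the call was lost without Saline 10, at 0.61 with an adjusted p of 0.0538. Cxcl15 was called in Dex_CDGHDM lungs, at 0.47 ± 0.127 (limma's adjusted p = 0.00657), and all 6 values were above all 5 Saline values. Cxcl3 also separated completely in Dex_CDGHDM lungs, at 0.71 ± 0.274, with an adjusted p of 0.0579 that went under 0.05 with each of the 3 other scalings (0.0233 to 0.0395). With single libraries left out, its change ran from 0.57, without Dex_CDGHDM 1, to 0.80, and limma's adjusted p from 0.0495 to 0.143. In AM155 lungs Cxcl3 was not called against Saline, at 0.40 (interval -0.16 to 0.96, limma's adjusted p = 0.244). For the 2 separations in Dex_CDGHDM lungs the background is 17.3% of all genes, whose Dex_CDGHDM and Saline groups did not overlap. In all, 2 of 7 members were called higher and 0 lower in Dex_CDGHDM lungs, where 25.1% of genes were called, 7.59% higher and 17.5% lower. In AM155 lungs 1 was called higher and 0 lower, where 40.5% of genes were called, 7.82% higher and 32.7% lower, and 0 of 7 had fully separate groups, against 17% of all genes. The 3 comparisons with Saline share its 5 libraries.

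Genes that mark mature neutrophils moved in both directions with sensitization. Of 22 in the list, 6 were higher and 9 lower in CDG_HDM lungs, against 9.35% of all genes higher and 22.8% lower, and with a median change of -0.24 against -0.10 over all genes. The genes that fell included Retnlg, a resistin-like protein of neutrophils, at -1.41 ± 0.216, and Cxcr1, a further receptor for ELR chemokines, at -0.69 ± 0.129. Those that rose included Cd177, a neutrophil surface glycoprotein, at 1.71 ± 0.261, Lrg1, a granule glycoprotein that epithelium and endothelium also make, at 1.37 ± 0.142, and Fpr2, a formyl peptide receptor shared with macrophages, at 0.93 ± 0.143. The mean log2(TPM + 1) of the 22 genes ran from 3.34 to 3.89 in CDG_HDM and from 3.42 to 3.98 in Saline libraries, so the groups overlapped. Their summed level was 485.5 to 981.9 TPM in CDG_HDM and 703.9 to 1387 TPM in Saline lungs. The part of neutrophil number in the Cxcr2 and Csf3r values was not tested.

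**Figure D4:**
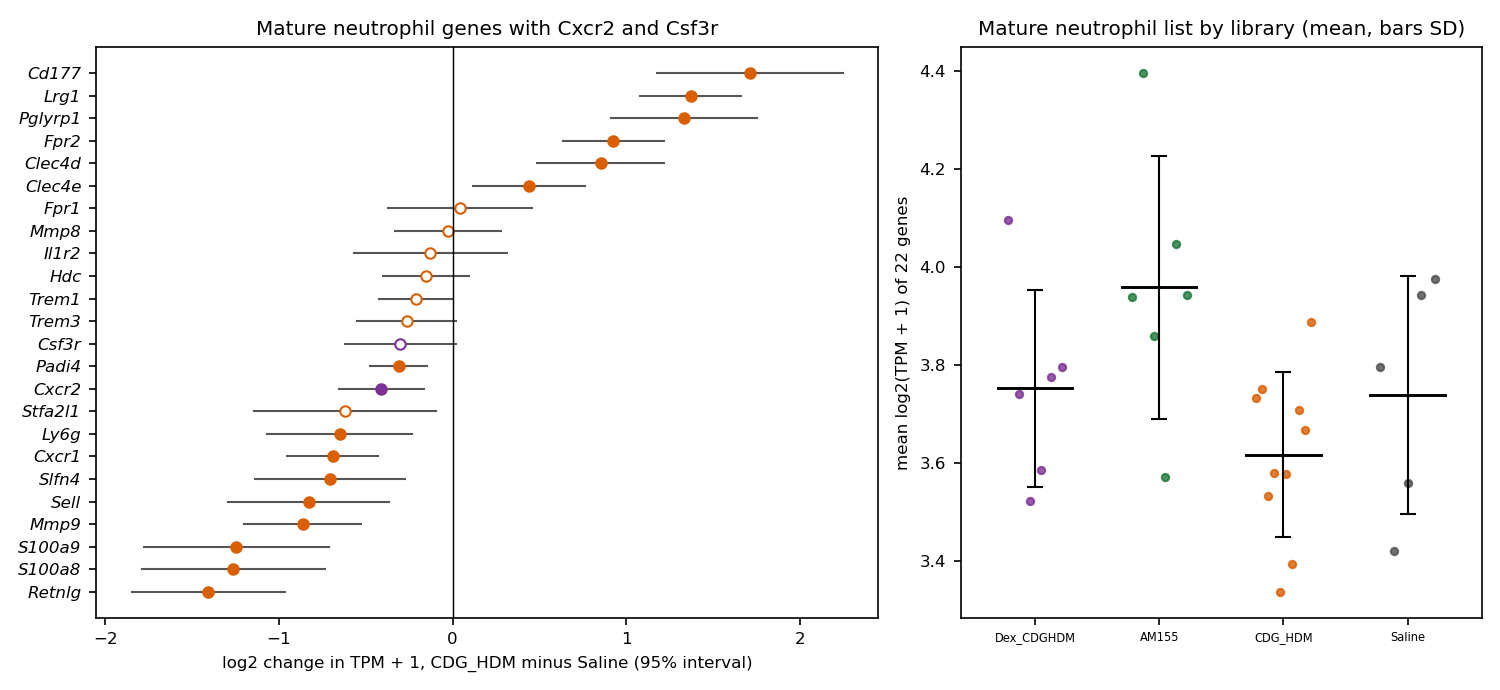
Left, log2 changes in TPM + 1 of CDG_HDM minus Saline for the 22 mature neutrophil genes in orange and for Cxcr2 and Csf3r in purple, with 95% intervals and with filled points for genes called at an adjusted p of 0.05. Right, the mean log2(TPM + 1) of the 22 genes in each library, with the group mean and SD, for Dex_CDGHDM, AM155, CDG_HDM and Saline. Changes run from -1.41 for Retnlg to 1.71 for Cd177, and the group means are 3.75, 3.96, 3.62 and 3.74.

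Granule genes of neutrophil precursors, which blood neutrophils no longer transcribe strongly, differed in level. Elane, Ctsg and Fcnb did not reach the filter, while the 10 listed genes together summed to 155.5 to 340.6 TPM in CDG_HDM lungs. Of the 7 tested, 3 were lower in CDG_HDM lungs: Ltf (lactoferrin) at -1.11 ± 0.360, Prtn3 (proteinase 3) at -0.36 ± 0.105 and Cebpe, a transcription factor of granulocyte maturation, at -0.35 ± 0.117. Chil3, a chitinase-like protein that alveolar macrophages also make, was higher at 1.28 ± 0.230. Over all genes, 9.35% were higher and 22.8% lower in that comparison. The calls of Ltf and Cebpe were lost without Saline 10 (adjusted p of 0.0721 and 0.067), and that of Ltf without Saline 2 or Saline 5 also. Cebpe was not called with quantile normalization (adjusted p = 0.0547) or a common sum (adjusted p = 0.066), which left 2 of 7 lower. In AM155 lungs 2 of 7 granule genes were higher than in CDG_HDM lungs and 0 lower, where 0.0918% of all genes were higher. Ngp, the neutrophilic granule protein, averaged 13.2 TPM in AM155 and 1.63 TPM in CDG_HDM lungs (2.36 ± 0.202). Camp, a cathelicidin, averaged 5.62 TPM in AM155 and 0.932 TPM in CDG_HDM lungs (1.71 ± 0.171). Of 22 mature neutrophil genes 3 were higher in AM155 lungs too, 0 lower and 19 not called. The 3 were S100a8 and S100a9, the chains of calprotectin, and Slfn4 (1.41 ± 0.243, 1.37 ± 0.246 and 0.99 ± 0.200). The call was lost for S100a9 without AM155 3 (adjusted p = 0.0674) or AM155 8 (adjusted p = 0.0538), and for Slfn4 without AM155 3, AM155 5, AM155 8 or any of 4 CDG_HDM libraries (adjusted p up to 0.163), and also without AM155 5, AM155 6 and Dex_CDGHDM 4 together (adjusted p = 0.0686). In dexamethasone lungs 0 of 22 mature and 0 of 7 granule genes were called against CDG_HDM lungs. The direct test of Dex_CDGHDM against AM155 called 0 of 22 mature genes, and 2 of 7 granule genes lower. Of 7 erythroid markers, 2 were also called higher in AM155 lungs, among them Slc4a1, the anion exchanger of red cells (0.65 ± 0.136), and 0 without AM155 5, AM155 6 and Dex_CDGHDM 4. In AM155 lungs the 7 genes summed to 11560 to 29870 TPM, against 3865 to 18140 TPM in CDG_HDM lungs. The part of blood in the AM155 values was not tested.

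Signals that induce these chemokines were higher in part. Of 26 inducers and regulators tested, 8 were higher and 2 lower in CDG_HDM lungs, against 9.35% of all genes higher and 22.8% lower. Their median change was 0.16, against -0.10 over all genes. Under each of the 3 other scalings 15 were higher. Higher calls over all 17437 genes grew as well, from 1631 to 3903 (median-of-ratios), 3571 (quantile) and 4567 (common sum). Tnf was 9.73 TPM in CDG_HDM and 2.91 TPM in Saline lungs, a log2 change of 1.44 ± 0.139. Il17a, the T cell cytokine that prolongs the life of Cxcl1 messages, was 2.39 TPM in CDG_HDM and 0.897 TPM in Saline lungs, a change of 0.79 ± 0.175. Tlr2, a receptor for bacterial lipoproteins, rose by 1.03 ± 0.121, Csf2 (GM-CSF) by 0.57 ± 0.124 and Il1b by 0.51 ± 0.174, the last not without Saline 4 or Saline 5 (adjusted p of 0.0625 and 0.0798). Zc3h12a, which encodes the ribonuclease Regnase-1 that degrades inflammatory messages, rose by 0.53 ± 0.0908. Il6 and Il17f did not pass, at -0.11 (adjusted p = 0.521) and 0.03 (adjusted p = 0.823).

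Genes listed as sharing inducers with the chemokines in airway epithelium were mostly higher. The list is not particular to epithelium: Lrg1 is also counted among the mature neutrophil genes, and Lcn2 is made by neutrophils too. The cell source of these changes was not tested. Of 16 tested, 12 were higher and 1 lower in CDG_HDM lungs, against 9.35% of all genes higher and 22.8% lower. Their median change was 1.58, against -0.10 over all genes. Slpi, an inhibitor of neutrophil elastase, averaged 697.2 TPM in CDG_HDM and 39.9 TPM in Saline lungs (4.03 ± 0.195). Ubd, a ubiquitin-like protein, reached the same change at 4.03 ± 0.324. Lcn2, the iron-binding lipocalin of neutrophils and epithelium, averaged 449.1 TPM in CDG_HDM and 77.6 TPM in Saline lungs (2.49 ± 0.201), and Steap4, a metalloreductase, rose by 1.54 ± 0.135. Saa1 and Saa2 were under the filter. The difference between this list and the chemokines was not tested.

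Of 20 other genes of neutrophil traffic, 8 were higher and 5 lower in CDG_HDM lungs (10 and 3 with a common sum), where 9.35% of all genes were higher and 22.8% lower. The share of the list that was lower is close to that of all genes. The integrin genes Itgb2 (1.16 ± 0.117) and Itgal (0.84 ± 0.115), shared by most leukocytes, rose, as did the selectin ligand Selplg (0.82 ± 0.109) and Cxcl16 (0.93 ± 0.107). Cxcr4, which holds neutrophils in marrow and lung, rose by 0.62 ± 0.123 and its ligand Cxcl12 by 0.53 ± 0.0937. Ackr1, the endothelial receptor that carries chemokines across venules, rose by 0.55 ± 0.173, though not without Saline 8 (adjusted p = 0.0618). Of the platelet chemokines encoded between the members on chromosome 5, Ppbp fell to 7.52 TPM in CDG_HDM against 14.6 TPM in Saline lungs (-0.93 ± 0.234) and Pf4 was 46.5 TPM in CDG_HDM and 41.1 TPM in Saline lungs (0.16, adjusted p = 0.327), though Pf4 was called higher with a common sum (0.32, adjusted p = 0.0229).

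Marker RNA of other cell types also differed between CDG_HDM and Saline libraries, where 9.35% of all genes were called higher and 22.8% lower. Macrophage genes were higher in 10 of 12 and lower in 1, and summed to 756 to 1660 TPM in CDG_HDM and 293.7 to 339.7 TPM in Saline lungs. T cell genes were higher in 9 of 10, with sums of 251.3 to 416.1 TPM in CDG_HDM and 96.5 to 173.2 TPM in Saline lungs. Heart muscle genes were lower in 11 of 11 (108.4 to 450.2 TPM, against 601.3 to 1759 TPM in Saline lungs), adipocyte genes in 7 of 8 (31.4 to 135.1 TPM, against 272.2 to 447.7 TPM) and erythroid genes in 7 of 7 (3865 to 18140 TPM, against 27080 to 41250 TPM). Platelet genes were lower in 3 of 6, and of 6 eosinophil genes tested 2 were higher and 1 lower, with Epx and Ear6 under the filter. The part of these differences in the changes of the chemokines and receptors was not tested.

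Within groups, Cxcl1, Cxcl3 and Cxcl5 were among the genes most alike one another across libraries. Likeness was measured as the root mean square distance between standardized log2(TPM + 1) profiles over the 27 libraries, with each group's mean removed, where a smaller value means more alike. For Cxcl3 the nearest of all tested genes was Cxcl5 at 0.476, followed by Pigr, the epithelial receptor that transports IgA, at 0.527 and the monocyte chemokine Ccl2 at 0.560. For Cxcl5 they were Cxcl3, Cxcl1 at 0.608 and Pigr at 0.679, and for Cxcl1 they were Cxcl5, Cxcl3 at 0.679 and Ccl2 at 0.712. Cxcl2 shared this less: its nearest genes were Noxa1 at 0.611, Elp5 and Il13ra2, and Cxcl3 ranked 166 at 0.875. In turn, Cxcl2 ranked 60 for Cxcl1, 98 for Cxcl5 and 210 for Cxcl3. Cxcl15 was nearest to Glipr2 at 0.491, Car8 and Nupr1. Cxcr2 was nearest to Il1f9 at 0.361, Caln1 and Ncr1, with Csf3r at rank 11, and Csf3r to Gm9733 at 0.401, Cd101 and Slfn4, with Cxcr2 at rank 6. Il1f9 is another symbol of Il36g, which the inducer list names but its counts leave out. For Cxcr2, Cxcl1 ranked 16485 of the tested genes at 1.36, about the distance of unrelated profiles and not of opposite ones. These distances describe points that share a library and its scale.

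**Figure D5:**
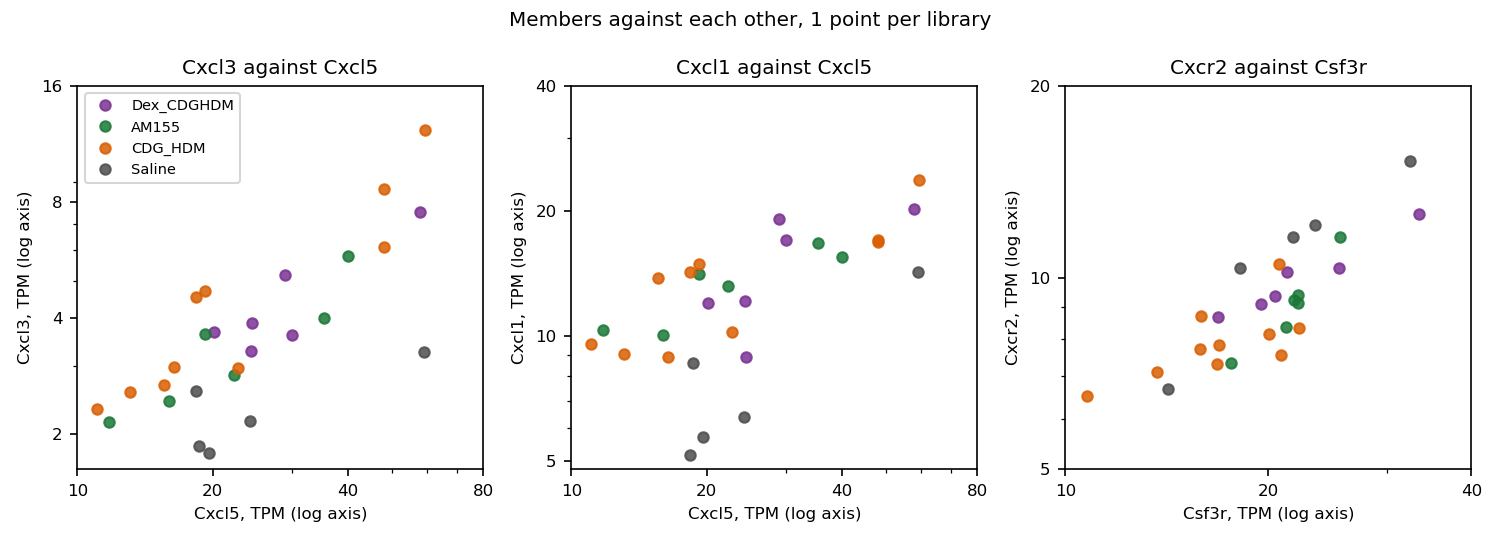
TPM of Cxcl3 against Cxcl5, of Cxcl1 against Cxcl5 and of Cxcr2 against Csf3r on log axes, with 1 point per library coloured by group. The libraries with most Cxcl5, CDG_HDM 12, 13 and 14, Dex_CDGHDM 1 and Saline 2, are also high in Cxcl3 and Cxcl1 within their groups, and Saline 8 is highest of its group for both receptors.

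With the group means kept, Cxcl1 was nearest to Cd14, a co-receptor for bacterial lipopolysaccharide on macrophages, at 0.554, then Ccl2 and Rgs16, and Cxcl3 ranked 4. Cxcl3 was then nearest to Ccl2 at 0.561, Mab21l3 and Cxcl1, and Cxcl5 to Cxcl3 at 0.678, Foxs1 and Tmem171. Cxcl2 was nearest to Il13ra2, Elp5 and Aasdh, and Cxcl15 to Glipr2, Car8 and Adamts4. Cxcr2 and Csf3r each held rank 3 in the other's order, at 0.555, after Il1f9 and Nlrp12 for Cxcr2 and after Trem3 and Gm9733 for Csf3r.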

How the data were processed

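Total RNA of 27 left lung lobes was depleted of ribosomal RNA and sequenced from stranded paired-end libraries, per the labels' protocols, at a planned 100M reads per sample. The deposited values are TPM, computed by the authors, in 1 table of linear and 1 of circular RNA. The submitters' processing notes name genome build mm10 and CASAVA 1.9. The sources used here do not name the quantifier or its filters, and TPM keeps no depth. Groups came from sample titles. All libraries entered 1 model (limma 3.58.1, R 4.3.3, eBayes with a trend) on log2(TPM + 1), with 6 two-sided contrasts and Benjamini-Hochberg adjustment over 17437 genes. The model was tested on simulated data of independent normal values. Over the 6 contrasts, it called 12% to 44% of 50 genes changed 1.25-fold and 78% to 92% of 50 changed 1.5-fold. Each simulation also held 50 genes changed 2-fold and 50 changed 4-fold, which loosens the adjusted threshold. The shares therefore do not carry over to the treatment comparisons, where few genes were called and the threshold is stricter. The members, the 14 gene lists and the tests were chosen with earlier results of these data known. From each list the text names up to 4 called genes with the smallest p, set attractants, receptors and cytokines, and for each member its 3 nearest genes. The 11 alternative settings covered scaling, pseudocount, filters, variance model, samples fitted, a replicate block and single libraries left out. Dropping libraries that stood apart was added after seeing the data. Promoters came from RefSeq (GRCm38.p6) and positions from GENCODE M21. Il36a and Il36g of the inducer list are not among the table's symbols, which hold these genes as Il1f6 and Il1f9, so the counts of that list leave them out. The values of 1 listed gene are not reported here.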

Additional observations from a re-analysis of the deposited data

Results flagged for a closer look

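Single libraries stood apart from the rest of their group by Dixon's ratio on TPM for 4 of 32 combinations of member and group. For independent normal values chance gives about 1 in 20, but these combinations share libraries and TPM need not be normal. Cxcl5 was 57.98 TPM in Dex_CDGHDM 1, above the other 5 libraries of that group, and 59.15 TPM in Saline 2, above the other 4. Cxcl15 was 983.2 TPM in CDG_HDM 13, the highest value of that gene in the series. Csf3 was 0.31 TPM in Dex_CDGHDM 4, the lowest of its group and 1 of the 3 libraries with most circular RNA.

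The 2 treatments differed in 2 of 7 tested granule genes of neutrophil precursors, while 0 of 22 mature neutrophil genes were called. Over all genes, 0.0631% were called lower and 0.505% had groups that did not overlap. Against AM155, Dex_CDGHDM lungs were lower by limma's test in Camp (-1.26 ± 0.192, adjusted p = 0.00154) and in Ngp (-1.76 ± 0.226, adjusted p = 0.000179), and in both genes all 6 Dex_CDGHDM libraries lay below all 6 AM155 libraries.

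Cxcl15 was the only member in the table of circular RNA, which holds 4416 gene symbols. Its circular value was 70.09 TPM in Dex_CDGHDM 6, 15.48 TPM in CDG_HDM 3 and 24.12 TPM in CDG_HDM 14, and it was listed at 0 in the other 24 libraries, all Saline libraries among them.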

How the results depend on the processing

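TPM without counts gives no depth, so low members such as Csf3 cannot be given an interval from counting, and the share of RNA outside the tables differs between groups, which moves every value. Where calls or signs changed, the cause was not tested. For CDG_HDM minus Saline, called genes were 5607 as deposited, 9822 with array weights, 3315 with the replicate block and 8660 without Saline 4 and AM155 6. Members called there were 3, and 1 with the replicate block. Under the block Cxcl1 (0.51, limma's adjusted p = 0.0811) and Cxcl3 (0.34, limma's adjusted p = 0.241) lost their calls. Nothing in the labels says that a replicate number is shared between groups. Deviations of same-numbered libraries correlated by -0.239 to 0.274 (median 0.0245) and over 0.1 in 2 of 20 pairs. Libraries with different numbers were not compared, so these values cannot settle whether the numbers pair the mice. Cxcl3 was also lost without Saline 4 and AM155 6 (adjusted p = 0.0524), where Csf3r was called (adjusted p = 0.025), and Cxcl15 was called with array weights (adjusted p = 0.0438). With 1 library left out, members called ran from 1 (without Saline 8) to 3. For Dex_CDGHDM minus CDG_HDM, the 1 called gene became 48 with median-of-ratios scaling, 63 with quantile normalization, 35 with a common sum, 0 with a pseudocount of 0.1, without a trend or with the replicate block, 2 without a filter or with only both groups, 11 with array weights, 3 without the libraries rich in circular RNA, and 0 to 2 with 1 library left out. For AM155 minus CDG_HDM, 18 became 34, 33 and 38 under those scalings, 10 with the replicate block, 28 without Saline 4 and AM155 6, and 7 to 21 with 1 library left out. For Dex_CDGHDM minus AM155, 14 became 103, 115 and 61 under the scalings, 26 with array weights, 22 with only both groups, 3 without the libraries rich in circular RNA, and 9 to 34 with 1 library left out; members called became 1 with quantile normalization, and 0 to 1 with 1 library left out. For Dex_CDGHDM minus Saline, 4376 became 9084 with array weights, 2815 with the replicate block and 7655 without Saline 4 and AM155 6. For AM155 minus Saline, 7059 became 4518 without the libraries rich in circular RNA, and members called became 2 with array weights or without Saline 4 and AM155 6, and 0 (without Saline 10) to 2 with 1 library left out. The replicate block also ended the calls of Cebpe (adjusted p = 0.103), Ltf (0.0923), Il1b (0.176) and Ackr1 (0.207) in CDG_HDM minus Saline, of Slfn4 in AM155 minus CDG_HDM (0.093) and of Camp in Dex_CDGHDM minus AM155 (-1.06, adjusted p = 0.0559), and Slfn4 was lost without a filter (0.0722). Signs turned only for changes that were not called in either case. For CDG_HDM minus Saline these were Cxcl2 (0.057, 0.055 and 0.091 under the scalings, -0.116 to 0.083 with 1 library left out), Cxcl5 (0.006 with median-of-ratios scaling, 0.05 with a common sum, -0.255 to 0.194), Il17f (-0.057 with the replicate block, -0.004 to 0.062), Pf4 (-0.064 with the replicate block) and Il6 (-0.176 to 0.001). For Dex_CDGHDM minus CDG_HDM, Cxcl2 became 0.006 with median-of-ratios scaling, 0.03 with a common sum, 0.073 with array weights, 0.065 with the replicate block and 0.029 without the libraries rich in circular RNA (-0.078 to 0.045 with 1 left out). Cxcl3 became 0.004, 0.03, 0.18, 0.329 and 0.042 in the same order, and 0.022 with a pseudocount of 0.1 (-0.135 to 0.145). For AM155 minus CDG_HDM, Cxcl1 became 0.065, 0.068 and 0.096 under the scalings, 0.141 with array weights, 0.232 with the replicate block, 0.154 without the libraries rich in circular RNA and 0.05 without Saline 4 and AM155 6 (-0.079 to 0.076). Cxcl5 became 0.018, 0.028, 0.05, 0.224, 0.231, 0.265 and 0.111 in the same order (-0.226 to 0.111). Cxcl2 became 0.016 with a common sum, 0.007 with array weights and 0.076 with the replicate block, and Cxcl3 0.107 with the replicate block, against -0.31 without it. For Dex_CDGHDM minus AM155, Csf3r became -0.03, -0.036 and -0.032 under the scalings, -0.038 with the replicate block and -0.016 without Saline 4 and AM155 6 (-0.072 to 0.118), Cxcl2 -0.011 with the replicate block and 0 without Saline 4 and AM155 6 (-0.003 to 0.139), and Cxcl1 -0.091 without the libraries rich in circular RNA.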
